A study of Mus musculus with 51 samples.

Results

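Among the H3K4me1 peaks of mouse early astrocytes, 22252 had no H3K4me1 peak in the progenitors, still had one in late astrocytes, and met no H3K27ac peak at any of these stages. They were 22252 of 181227 early-astrocyte H3K4me1 peaks on chromosomes 1 to 19, or 12.3% of that list. Members were chosen by overlap of at least 1 bp between the deposited peak lists. An early-astrocyte H3K4me1 peak was kept if it overlapped a late-astrocyte H3K4me1 peak, no progenitor H3K4me1 peak, and no H3K27ac peak of progenitors, early astrocytes or late astrocytes. The presence and absence of the marks are therefore what defined the members and are not results about them.

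The cells came from embryonic stem cells of the C57/BL-6 strain, which were first turned into astrogliogenic neural precursor cells (aNPC) kept in medium with N2, EGF and FGF-2. The aNPC were then differentiated in DMEM with 1% FBS, B27 and LIF. Chromatin was taken after 1 day (early astrocytes, eA) and after 5 days (late astrocytes, lA). The RNA labels name the stage of 5 days lA_1, whereas in the ChIP labels the last digit is the replicate. All groups used here were unmodified cells of this one in vitro course, and nothing in them stands for an animal or an age. H3K4me1 and H3K27ac were each profiled by ChIP-seq in 2 biological replicates per stage, 12 samples of the 51 in the series, but the authors merged the replicates before peaks were called. Each stage and mark is thus 1 peak list, with 150527, 181227 and 203377 H3K4me1 peaks in aNPC, eA and lA and 77553, 81348 and 90545 H3K27ac peaks. No error between cultures can be given, and the read depth behind the lists is unknown, so a missing peak means only that the region was under the calling threshold. Intervals below are 95% Wilson intervals over peaks, which are not replicates of a stage, and neighbouring peaks are not independent. As only chromatin was compared, the cell type was read from the annotation of peaks alone. At least 1 eA H3K4me1 peak was given to 17208 of 21418 coding genes (80.3%). It was given to all 35 genes of an astrocyte list and 14 of 18 of a microglia and macrophage list, but also to all 28 of the neuronal factor list, all 17 matched oligodendrocyte genes and all 18 endothelial and mural genes, so the peaks do not tell these cell types apart.

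H3K4me1 is a methyl mark laid down on nucleosomes at enhancers, including ones that are not yet in use. H3K27ac is an acetyl mark that accompanies enhancers and promoters in active use, and an enhancer with H3K4me1 and without H3K27ac is usually called primed or poised. Factors that bind DNA early in a fate change can recruit the enzymes that write H3K4me1, and in astrogliogenesis Nfia, Stat3 and AP-1 proteins are known regulators. Members are described here beside 3 other classes of eA H3K4me1 peaks. The persistent class had aNPC and lA H3K4me1 and no H3K27ac at any stage (32153 peaks), the eA-only class had neither aNPC nor lA H3K4me1 and no H3K27ac (16674 peaks), and the later acetylated class differed from the members only in having H3K27ac in lA (5436 peaks).

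The 10 members with the highest −log10 q in the eA list show what such regions look like in sequence. Of these, 5 lay between genes, 3 in introns and 2 in exons. Their −log10 q ran from 27.6 to 37.7. The 200 bp around the summit is printed for the 8 whose window holds no annotated exon, to show the strongest members and where short factor motifs fall in them. Sequences are the plus strand of mm9, in lower case, and capitals mark exact matches, on either strand, to any of these motif cores: NF1 half-site TGCCAAG, AP-1 and Atf3 TGAGTCA, RUNX AACCACA, Stat3 TTCCNGGAA, TEAD GGAATG, SOX CATTGTT, Lhx2 TAATTAG, Brn1 ATGCNAAT, NeuroD E-box CAGATG, forkhead GTAAACA, RFX half-site GTTGCCA and CTCF-type AGGNGGC.
Wdr25 intron, chr12:110174903-110175102: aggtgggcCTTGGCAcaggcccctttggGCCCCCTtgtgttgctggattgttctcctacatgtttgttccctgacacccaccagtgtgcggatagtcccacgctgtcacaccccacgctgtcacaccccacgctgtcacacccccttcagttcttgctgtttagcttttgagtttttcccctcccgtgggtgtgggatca
Dcun1d3 intron, chr7:127004115-127004314: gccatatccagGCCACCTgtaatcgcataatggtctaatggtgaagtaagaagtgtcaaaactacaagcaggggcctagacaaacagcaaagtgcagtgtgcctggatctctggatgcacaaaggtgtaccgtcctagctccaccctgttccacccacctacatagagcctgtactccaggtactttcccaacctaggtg
nearest to Foxq1, chr13:31500810-31501009: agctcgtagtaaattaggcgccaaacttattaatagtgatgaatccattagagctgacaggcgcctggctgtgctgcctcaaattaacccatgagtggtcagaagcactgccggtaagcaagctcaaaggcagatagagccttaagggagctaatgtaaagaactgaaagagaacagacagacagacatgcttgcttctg
Atp2b2 intron, chr6:113760392-113760591: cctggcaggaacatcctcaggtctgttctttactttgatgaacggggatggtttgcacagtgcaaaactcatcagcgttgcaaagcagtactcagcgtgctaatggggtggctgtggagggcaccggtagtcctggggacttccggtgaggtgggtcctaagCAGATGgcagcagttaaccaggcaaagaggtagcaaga
nearest to 4931429P17Rik, chr13:48169931-48170130: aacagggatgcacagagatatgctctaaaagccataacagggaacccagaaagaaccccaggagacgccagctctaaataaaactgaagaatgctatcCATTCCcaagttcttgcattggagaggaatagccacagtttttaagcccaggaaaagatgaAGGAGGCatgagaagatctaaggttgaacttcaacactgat
nearest to Zc3h12a, chr4:124926620-124926819: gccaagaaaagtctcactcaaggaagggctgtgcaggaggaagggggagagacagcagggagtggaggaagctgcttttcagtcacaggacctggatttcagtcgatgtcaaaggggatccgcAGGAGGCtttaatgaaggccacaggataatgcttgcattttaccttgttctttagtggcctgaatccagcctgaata
nearest to Igf1, chr10:87213148-87213347: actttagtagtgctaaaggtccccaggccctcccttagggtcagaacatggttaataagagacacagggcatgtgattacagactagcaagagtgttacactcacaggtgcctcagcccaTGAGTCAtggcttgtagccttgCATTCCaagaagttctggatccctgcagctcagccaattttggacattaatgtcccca
nearest to BC018507, chr13:70578037-70578236: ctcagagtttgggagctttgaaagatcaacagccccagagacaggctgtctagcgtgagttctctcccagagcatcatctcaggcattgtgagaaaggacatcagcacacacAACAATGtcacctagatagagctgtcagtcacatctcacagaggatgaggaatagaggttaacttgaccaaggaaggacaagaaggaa

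Within these windows, the one nearest to Igf1, the gene of an insulin-like growth factor, held an AP-1 match (TGAGTCA, from position 121, counted from 1 at the left end of the window) and a TEAD match (CATTCC, the reverse strand, from position 143). In the Wdr25 intron, the member with the highest −log10 q of all held an NF1 half-site on the reverse strand (CTTGGCA, from position 9) and a CTCF-type match. The CTCF-type core was the most frequent in these windows, standing in 4 of the 8, those of Wdr25, Dcun1d3, 4931429P17Rik and Zc3h12a. A SOX match stood in the window nearest to BC018507, a TEAD match in the one nearest to 4931429P17Rik, and a NeuroD E-box in the Atp2b2 intron. Of the 8 windows, only the one nearest to Foxq1 held none of these cores. Among the 200 bp windows of all eA H3K4me1 peaks, 6.66% held the NF1 half-site, 5.16% the AP-1 core, 4.29% the RUNX core, 0.852% the Stat3 core, 13.01% the TEAD core, 3.75% the SOX core, 1.75% the Lhx2 core, 17.8% the NeuroD E-box and 13.7% the CTCF-type core. A match describes letters and not binding, and the letters of the NF1 and RFX half-sites can overlap.

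The next windows show the factors that the study followed. They are the highest member outside exons with a Stat3 core (those with an NF1 or AP-1 core are the Wdr25 and Igf1 windows above), and the highest members at Atf3 and Nfia themselves.
Stat3 core, nearest to Snx10, chr6:51628898-51629097: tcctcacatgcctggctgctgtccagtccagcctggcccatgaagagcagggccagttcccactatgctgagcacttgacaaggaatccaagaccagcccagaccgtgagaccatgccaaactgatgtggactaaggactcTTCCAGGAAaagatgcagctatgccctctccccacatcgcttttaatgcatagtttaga
Atf3 intron, chr1:193005152-193005351: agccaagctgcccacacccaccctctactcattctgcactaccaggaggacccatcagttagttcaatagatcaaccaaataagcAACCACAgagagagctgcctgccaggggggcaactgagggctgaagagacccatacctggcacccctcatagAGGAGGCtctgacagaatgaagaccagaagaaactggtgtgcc
Nfia intron, chr4:97630671-97630870: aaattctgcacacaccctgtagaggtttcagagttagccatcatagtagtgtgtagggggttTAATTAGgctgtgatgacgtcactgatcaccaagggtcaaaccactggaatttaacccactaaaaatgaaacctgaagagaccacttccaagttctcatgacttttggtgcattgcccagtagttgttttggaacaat

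The member nearest to Snx10 (chr6:51628496-51629194) had a −log10 q of 23.8 and a Stat3 palindrome (TTCCAGGAA, from position 142), and lay 75 bp from an H3K27ac peak. The window at Atf3, which encodes a stress-induced bZIP factor, held a RUNX match (AACCACA, from position 86). Nfia, the nuclear factor I gene that drives glial fate, held an Lhx2-type match (TAATTAG, from position 63) in its highest member. The AP-1 and Atf3 core was searched as TGAGTCA only. Other forms, such as the tgacgtca in this Nfia window, were not searched for and are not marked.

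The course that leads to the members began with 54431 eA H3K4me1 peaks that had no aNPC H3K4me1 peak, which were 30.03% of the eA list (29.8–30.2). Of these, 34603 (63.6%, 63.2–64.0) overlapped an lA H3K4me1 peak. Most of the retained peaks had no H3K27ac at any stage, and these 64.3% (63.8–64.8) are the members. The share without H3K27ac was higher, 84.1% (83.6–84.6), among the 19828 peaks with neither aNPC nor lA H3K4me1. It was lower, 30.8% (30.5–31.0), among the 104519 eA peaks with both. Retained peaks with H3K27ac in lA alone made up 15.7%, those with H3K27ac in eA and lA but not aNPC 12.3%, those with H3K27ac in eA alone 3.58%, and those with H3K27ac in aNPC 4.09%. The members thus outnumbered the 5436 peaks with H3K27ac in lA alone (the plot of these groups).

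**Figure D1:**
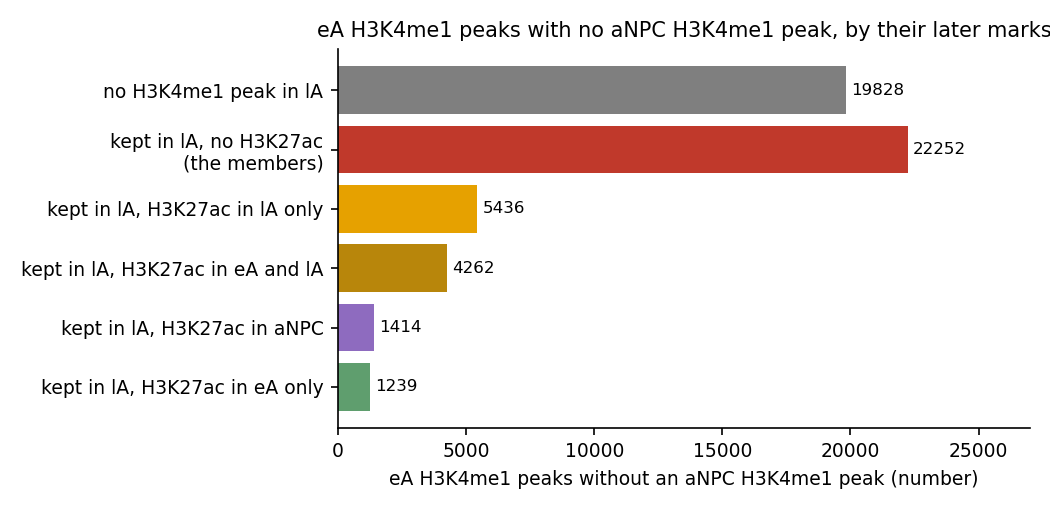
The bars give the number of eA H3K4me1 peaks on chromosomes 1 to 19 that overlapped no aNPC H3K4me1 peak. They are split by overlap with an lA H3K4me1 peak and, for peaks kept in lA, by the stages with H3K27ac (aNPC, eA or lA). The 22252 members form the longest bar, ahead of 19828 peaks with no H3K4me1 peak in lA.

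Few members sat at the edge of the rule. By at most 20 bp, 207 members overlapped their lA H3K4me1 peak, while 166 other peaks missed one. Another 166 members missed an aNPC H3K4me1 peak by at most 20 bp and 165 peaks overlapped one by as little, and 171 members missed an H3K27ac peak by that much. The rule is strict about contact, not distance: with no aNPC H3K4me1 or H3K27ac peak allowed within 500 bp, 15520 members were left, and with none within 2 kb, 11019. Their number also rests on the calling threshold, with 9971 left at a −log10 q of at least 5 in eA and lA and 10892 when the 3 H3K4me1 lists were cut to equal length.

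Members were narrow and low peaks. Their median width was 291 bp (quartiles 219 and 406, lowest 182, highest 1812 bp), against 498 bp in the persistent class, 366 bp in the later acetylated class and 235 bp in the eA-only class. MACS gives each peak a fold, the read enrichment at the summit over a local background, and a q-value, the p-value adjusted over the genome. The median fold of the members was 3.25 and their median −log10 q 5.48, with the highest at 37.7. In the persistent class the median −log10 q was 9.57, in the later acetylated class 6.66 and in the eA-only class 4.57. Only 13.8% of the members (13.4–14.3) ranked above the median of the eA list by −log10 q, and 13 members were among its highest 10%. These values come from the peaks that the rule used and are a description, with no test (the plot of width and height).

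**Figure D2:**
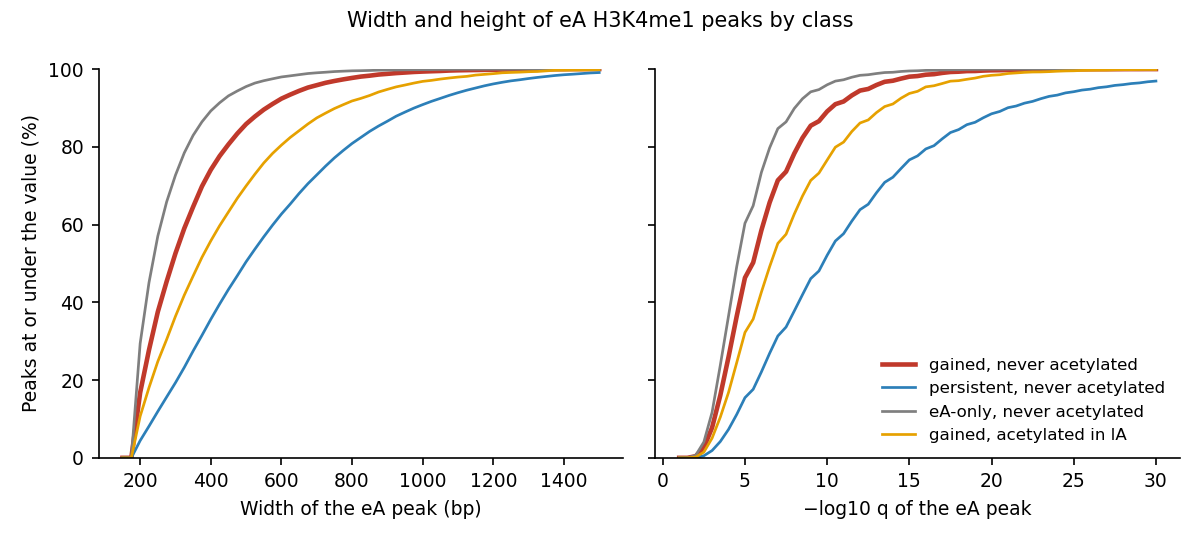
Cumulative share of peaks (%) by the width of the eA peak (bp, left) and by its −log10 q (right), for the members (thick red line) and the 3 other classes. The members lie between the eA-only and the later acetylated class on both axes, and the persistent peaks are the widest and highest of the 4.

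Each member has an lA peak by the rule, and these lA peaks are described next. Exactly 1 lA peak lay under 97.6% of the members, and for 81.9% that lA peak met no other eA peak. The lA peak was wider than the eA peak in 73.7% of the members (73.1–74.2), with a median of 450 bp against 291 bp. It was wider in 49.0% of the persistent peaks (medians of 499 and 498 bp) and in 77.7% of the later acetylated peaks (647 and 366 bp), and as the depth of the lists is unknown these widths are a description. Depth differs between lists in an unknown way, so heights were compared only by rank within a list. The median rank percentile by −log10 q was 24.8 in the eA list and 46.3 in the lA list, and 72.7% of the members (72.1–73.3) ranked higher in lA than in eA. Among persistent peaks 51.7% did so, and their median rank percentiles were 51.4 and 53.7. Among later acetylated peaks 79.1% did so, more than among the members, with medians of 34.6 and 65.0. The eA and lA lists differ in length, and with the H3K4me1 lists cut to equal length the medians were 23.3 and 41.7, with 69.5% of the 10892 members left (68.7–70.4) higher in lA, beside 48.5% of the persistent and 76.1% of the later acetylated peaks. The rule itself bears on these ranks, since it asked for no aNPC peak and for an lA peak, so they are a description. Members split into 10910 that were below the median of both lists, 8265 that were below it in eA and above it in lA, 1794 above it in both and 1283 above it in eA and below it in lA. The summits of the eA and the lA peak lay within 100 bp of each other in 49.7% of the members. The absence of H3K27ac holds for the eA interval only, since 1814 members (8.15%, 7.80–8.52) had an lA H3K4me1 peak that ran on into an H3K27ac peak of some stage, 1394 of them into one of lA.

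**Figure D3:**
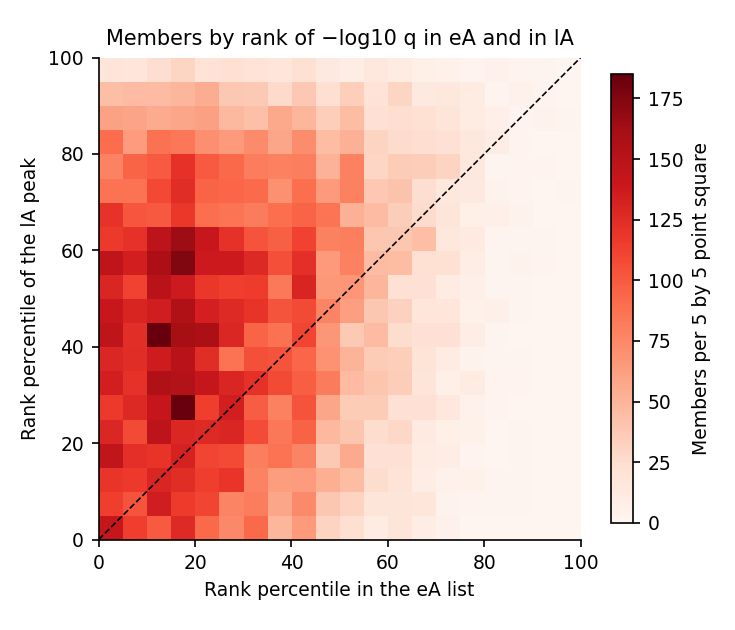
Number of members per square of 5 by 5 percentile points, by rank of −log10 q in the eA list (horizontal) and of the overlapping lA peak in the lA list (vertical), with a dashed line of equal rank. Members crowd on the left, and 72.7% lie above the line.

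The 10 strongest members were picked at the top of the eA list. In 9 of these 10 the lA peak had a lower rank percentile than the eA peak. The Wdr25 intron member (chr12:110174751-110175482, 732 bp) had a fold of 9.55 and a −log10 q of 37.7 in eA, at rank percentile 97.1, and its lA peak stood at 70.4. The exception was the intergenic member whose nearest start site is that of 4931429P17Rik, 56.0 kb away (chr13:48169582-48170334), which stood at 92.6 in eA and 95.3 in lA. Of these 10 peaks, 3 had a fold under 5 despite their high −log10 q. They lay at Cul9, where the peak covers an exon of Srf, the serum response factor gene, and at Dcun1d3 and Tlcd2, with folds of 3.36, 4.42 and 4.05. Those 3 were also close to chromatin marked earlier, 1040, 402 and 85 bp from an aNPC H3K4me1 peak, whereas the gap was 5497 to 24824 bp at the other 7. They lay close to H3K27ac of some stage as well, at 1037, 73 and 479 bp, against 8104 to 68738 bp at the other 7.

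Members lay at a wide range of distances from regions marked in aNPC. The median gap to the nearest aNPC H3K4me1 peak was 3177 bp, with 30.2% of the members (29.6–30.8) within 1 kb and 40.9% (40.2–41.5) within 2 kb of one. In the eA-only class these shares were 33.3% and 44.2%, and in the later acetylated class 33.5% and 42.5%. An aNPC H3K4me1 peak flanked 892 members within 2 kb on both sides, 8199 on one side and 13161 on neither. At the far end, 3467 members (15.6%, 15.1–16.1) were over 10 kb from every aNPC H3K4me1 peak and every H3K27ac peak of the 3 stages. Another member lay within 1 kb of 3125 members (14.0%) and within 10 kb of 7520 (33.8%).

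The distance from the members to H3K27ac was shorter at each later stage. The median gap from a member to the nearest H3K27ac peak was 10153 bp for aNPC peaks, 8181 bp for eA peaks and 6435 bp for lA peaks. Persistent peaks had median gaps of 7828, 8185 and 7139 bp, and eA-only peaks of 10158, 8890 and 8285 bp. The lA list also held the most H3K27ac peaks, and the part of list size in these gaps was not tested. H3K27ac peaks of lA with no aNPC counterpart numbered 45750, and 17.7% of the members (17.2–18.2) were within 2 kb of one, against 10.5% of the persistent (10.1–10.8) and 12.2% of the eA-only peaks (11.7–12.7). Of the 27939 aNPC H3K27ac peaks that were gone in eA and lA, one lay within 2 kb of 4.93% of the members (4.65–5.22), 8.11% of the persistent and 6.71% of the eA-only peaks, while the later acetylated class stood lower still, at 3.84%. Since the rule removed peaks that touch H3K27ac, these shares describe the classes and were not tested (the plot of gaps).

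**Figure D4:**
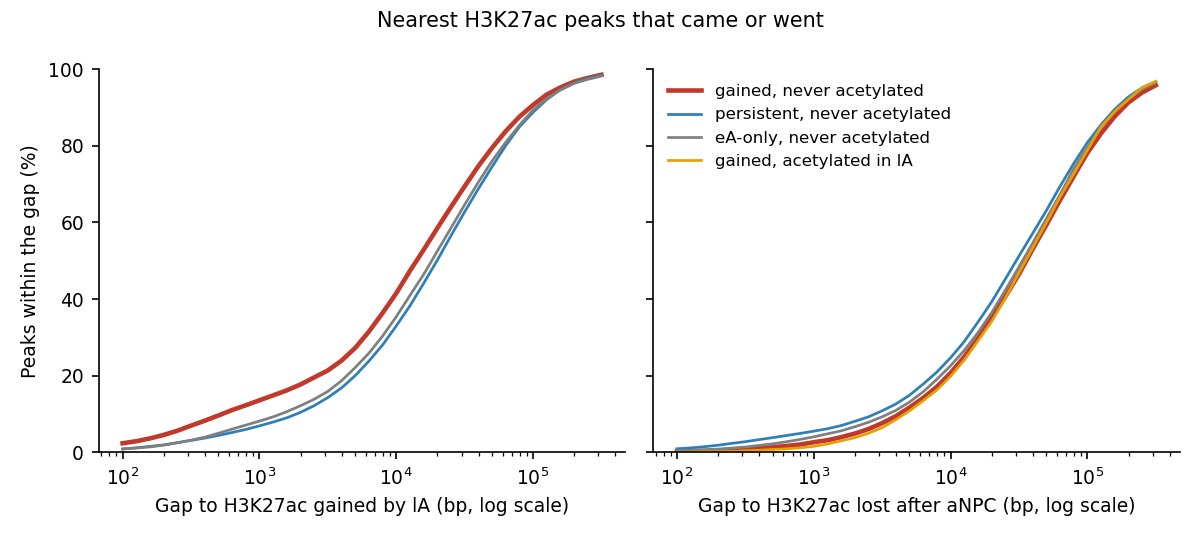
Cumulative share of peaks (%) within a gap (bp, log scale) of the nearest lA H3K27ac peak that was absent in aNPC (left, without the class chosen for lA H3K27ac) and of the nearest aNPC H3K27ac peak that was absent in eA and lA (right). At 2 kb the members stand at 17.7% on the left, above both other classes, and at 4.93% on the right, below the persistent and eA-only classes and above the later acetylated class at 3.84%.

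Position in genes was not part of the rule and could be tested. The members were rarely at promoters, meaning the 1 kb before and the 100 bp after the start of a coding transcript, with 369 of 22252 (1.66%, 1.499–1.83) against 5.18% of the persistent class (4.94–5.43). The odds ratio was 0.309 (0.275–0.346; Fisher's exact test, two-sided, Benjamini-Hochberg adjusted over 48 tests, adjusted p = 2.15e-109), and the members were lower in 19 of 19 chromosomes. The promoter share of the eA-only class was 1.82% and that of the later acetylated class 1.29%, and neither difference passed the test (Fisher's exact test, adjusted p = 0.357 and 0.105, with intervals of −0.426 to 0.102 and −0.00140 to 0.691 percentage points). With promoters widened to 1 kb either side of any transcript start, both did pass, with odds ratios of 0.866 and 1.36.

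Introns held 11356 members (51.0%, 50.4–51.7), more than in the persistent class (47.9%, odds ratio 1.13, exact adjusted p = 5.13e-12, 16 of 19 chromosomes), the eA-only class (49.1%, 1.08, exact adjusted p = 0.000590, 14 of 19) and the later acetylated class (45.8%, 1.23, exact adjusted p = 2.73e-11, 19 of 19). The excess over the eA-only class ended with peaks of −log10 q of at least 5 (exact adjusted p = 0.202), and with 1 peak of a class per 100 kb those over the eA-only and the later acetylated class both ended (exact adjusted p = 0.532 and 0.0807). Between genes lay 9845 members (44.2%, 43.6–44.9), fewer than of the later acetylated class (50.2%, odds ratio 0.788, exact adjusted p = 2.98e-14) and more than of the persistent class (42.3%, 1.08, exact adjusted p = 1.38e-05). The eA-only class stood at 44.3%, a difference of −0.0773 points (−1.07 to 0.919). The remaining 682 members lay in exons. The nearest coding start site was a median of 34449 bp away, against 25696 bp in the persistent and 42238 bp in the later acetylated class, and 5659 members (25.4%) were within 10 kb of one.

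Members were spread over the genome. They made up 11.2% to 13.3% of the eA H3K4me1 peaks of each chromosome, lowest on chromosome 19 and highest on chromosome 13. At least 1 member lay in 2194 of 2482 bins of 1 Mb, which held a mean of 8.97. The fullest bin (chr6:17000001-18000000) held 32 members among 145 eA peaks and spans Cav1, Cav2, Met and Wnt2. It was followed by 31 members in a bin at Bcl11b and Evl on chromosome 12 and 31 in the bin of Lpp on chromosome 16.

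Sequence was not used by the rule either, and AP-1, TEAD and Stat3 cores were more frequent in the members than in the persistent class. The AP-1 core, the site of Fos and Jun dimers and of Atf3, stood in the 200 bp window of 1685 members (7.57%, 7.23–7.93) and of 4.17% of the persistent peaks. The odds ratio was 1.88 (1.75–2.03, Fisher's exact test, adjusted p = 4.07e-62, 19 of 19 chromosomes). The same letters read backwards, a mark of base composition, stood in 3.93% of the members. TEAD cores, read by the DNA-binding partners of YAP, were in 16.8% of the members (16.3–17.3) and 13.1% of the persistent peaks (odds ratio 1.33, exact adjusted p = 4.07e-31, 19 of 19). Stat3 cores, the palindrome bound by the effector of LIF signals, were rarer, with 270 members (1.21%, 1.08–1.37) and 0.678% of the persistent peaks (odds ratio 1.80, 1.504–2.15, exact adjusted p = 5.75e-10, 17 of 19). All 3 differences passed under each of the 5 alternatives run on them, GC content and peak width included, with lowest odds ratios of 1.71, 1.27 and 1.56.

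NeuroD E-boxes went the other way. The CAGATG core of NeuroD factors, which drive neuronal differentiation, was in 16.6% of the members (16.1–17.1) and 18.2% of the persistent peaks (odds ratio 0.895, exact adjusted p = 6.06e-06, 15 of 19 chromosomes). RFX half-sites (3.61% and 4.38%, odds ratio 0.818) and CTCF-type cores (11.9% and 14.4%, 0.809) were also lower in the members. The CTCF-type difference was lost within steps of equal GC content (odds ratio 0.989, Mantel-Haenszel estimate). GC content itself was lower in the members, with a median of 47.0% against 49.0%, and 81.1% of their windows held a CpG against 85.5%.

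Against the eA-only class, AP-1 and TEAD cores differed in opposite directions. The eA-only class held the AP-1 core more often than the members, in 9.28% (odds ratio 0.801, 0.745–0.861, exact adjusted p = 7.91e-09, 17 of 19 chromosomes). It held the TEAD core less often, in 11.8% (odds ratio 1.502, 1.42–1.59, exact adjusted p = 6.73e-42, 19 of 19). Both differences passed under every one of the 5 alternatives. The Stat3 core was in 0.918% of the eA-only peaks (odds ratio 1.33, exact adjusted p = 0.0135), and this call was lost with 1 peak of a class per 100 kb (exact adjusted p = 0.203). NeuroD E-boxes were lower in the members than in the eA-only class, at an odds ratio of 0.880 (exact adjusted p = 6.74e-06). Lhx2-type cores were higher (2.08% and 1.72%), a call lost within steps of equal GC content and with 1 peak per 100 kb.

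Against the later acetylated class, few cores passed the test. Of 13 cores, 2 passed the test, the NF1 half-site (7.59% of the members and 6.36%, odds ratio 1.21, 1.07–1.36, exact adjusted p = 0.00439) and the Brn1-type octamer (3.22% and 2.35%, 1.38, exact adjusted p = 0.00186), both higher in the members. The NF1 call was lost with peaks of −log10 q of at least 5 (exact adjusted p = 0.0951). For AP-1 the odds ratio was 1.03 (0.916–1.15), for TEAD 1.03 (0.947–1.11) and for Stat3 0.915 (0.704–1.19), none past the threshold. In windows of 500 bp, AP-1 and Stat3 cores were both lower in the members than in this class (odds ratios 0.866 and 0.711, exact adjusted p = 0.000706 and 0.000219). NF1 half-sites and RUNX cores did not differ past the threshold from the persistent or the eA-only class, with odds ratios between 1.02 and 1.08. Peak width and height differ between the classes as well, and the part of height in these shares was tested only by the minimum of −log10 q (the plot of odds ratios).

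**Figure D5:**
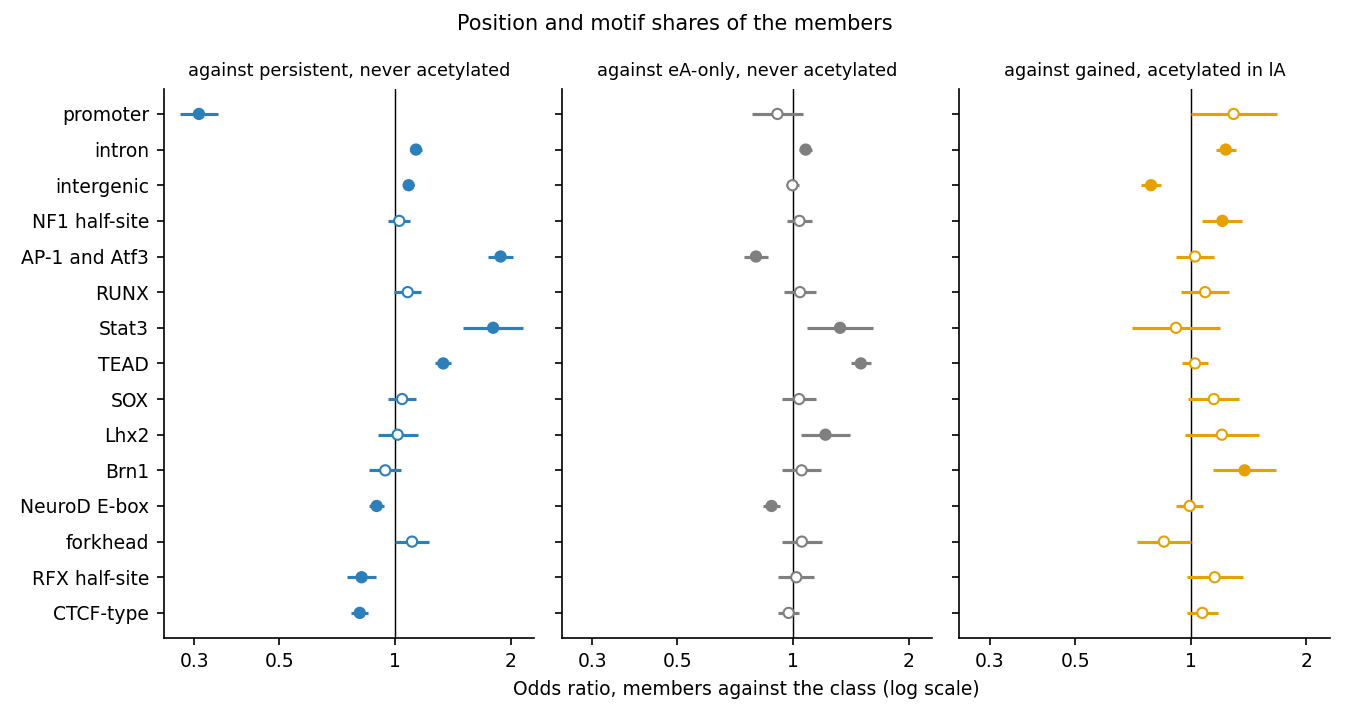
Odds ratios (log scale) of the members against each of the 3 classes for position in genes and for motif cores in 200 bp windows, with 95% intervals. Filled points passed an adjusted p of 0.05 and open points did not. AP-1, Stat3 and TEAD lie to the right and promoters and NeuroD E-boxes to the left of 1 against the persistent class, while AP-1 lies to the left against the eA-only class.

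The members also varied among themselves, which is given as a description. No core of the 13 was found in 8097 members (36.4%), 1 in 8698, 2 in 4095 and at least 3 in 1362. AP-1 and TEAD cores shared a window in 312 members. TEAD cores were in 20.02% of the members (19.2–20.9) whose lA peak had a −log10 q of at least 10 and in 13.2% (12.2–14.3) of those whose lA peak was under 5. AP-1 cores ran in the other direction, at 6.85% (6.33–7.42) and 8.66% (7.85–9.56). Members with an aNPC H3K4me1 peak within 2 kb held AP-1 cores in 6.39% (5.91–6.91) and NF1 half-sites in 6.58% (6.09–7.11), and members over 10 kb from one held them in 8.27% (7.52–9.09) and 8.86% (8.09–9.71). Near H3K27ac gained by lA, within 2 kb, AP-1 cores were in 8.21% (7.39–9.11), and over 10 kb away in 7.56% (7.12–8.03). These splits were chosen after the data had been seen.

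By the study's rule for peaks and genes (in an exon or intron, or within 50 kb of a start site), 16742 members were given to the coding gene with the nearest start site. At least 1 member went to 7702 of 21418 coding genes, or 36.0%. Of these, 4033 genes had 1 member, 704 had at least 5 and 111 at least 10. Long genes collect peaks, and 104 of those 111 were over 100 kb long, with a median of 444 kb against 15.5 kb for all coding genes. Counts per gene are therefore given beside the number of all eA H3K4me1 peaks of the gene, of which 11.9% were members over all genes (11.7–12.04).

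The most members, 27 of 124 eA peaks, went to Pde4d on chromosome 13, a cAMP phosphodiesterase gene of 1504 kb. Its relative Pde4b had 17 of 119. Lpp, which encodes a LIM protein of cell contacts, had 26 of 104, and Cdh13, a cadherin anchored without a cytoplasmic tail, had 25 of 110. The receptor phosphatase genes Ptprt and Ptprd had 25 of 88 and 20 of 106. Nckap5 had 23 of 149 and Camta1, a calmodulin-binding transcription activator gene, 21 of 118. Foxp1, a forkhead factor gene, had 19 of 80, and Rora, which encodes an orphan nuclear receptor, 18 of 113. Among these 12 genes the highest share was at Rbfox1, a neuronal splicing regulator gene, with 18 of 40 eA peaks (45.0%, 30.7–60.2), and Csmd1 followed with 17 of 49 (34.7%). The 12 genes were chosen for their number of members, which favours high shares, so these shares are a description and were not tested. At Rbfox1 the persistent and the eA-only class had 7 peaks each and the later acetylated class 0.

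Gene groups were compared with these backgrounds and not tested, as the lists were chosen with earlier results of these data known. Of 15 lists, 13 had a larger share of genes with a member than the 36.0% of all coding genes. Median gene length ran from 6.55 to 457 kb over these 13 lists, beside 15.5 kb for all coding genes, and its part in the gene shares was not tested. Only 2 lists had an interval of their peak share that lay above 11.9%. Neither did so without its gene with the most members, at 14.2% (10.6–18.9) for the LIF, JAK and STAT list without Socs6 and 13.8% (11.7–16.2) for the synapse and channel list without Nrxn3. One was the LIF, JAK and STAT list, the pathway that LIF in the medium engages, where 17 of 22 genes had a member and 49 of 298 eA peaks (16.4%, 12.7–21.1) were members. Within each list up to 5 genes with the most members are named, ties in alphabetical order. Socs6, a suppressor of cytokine signalling, led it with 10 of 24, ahead of Jak1 with 6 of 33, the oncostatin M receptor gene Osmr with 5 of 11, and Crebbp and Il6st with 3 each. The other was the synapse and channel list, with 29 of 37 genes and 140 of 993 peaks (14.1%, 12.1–16.4), led by Nrxn3 with 13 of 73, Gria1 and Kcnma1 with 11 each, and Cacna1c with 9.

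Lists for cell contact held many members at ordinary shares. Adhesion genes had a member in 29 of 33 (154 of 1191 peaks, 12.9%), with Opcml at 13, Cdh2 and Ntm at 12 and Negr1 at 10 beside Cdh13. Axon guidance genes had one in 30 of 39 (156 of 1200), with 15 each at Robo1 and Slit3, a receptor and a ligand of the same repulsive pair, 11 at Nrp2 and Plxna4 and 10 at Sema6d. Matrix and integrin genes had one in 31 of 42 (89 of 649, 13.7%), led by the laminin gene Lama2 with 10, Col5a1 and Col8a1 with 6 and Adamts12 and Lamc1 with 5. BMP and TGF-beta genes had one in 26 of 35 (82 of 589, 13.9%), with the inhibitory Smad7 at 7 and Bmpr1a, Ltbp1 and Tgfbr3 at 6 each and Bmpr1b at 5. TEAD and YAP genes had one in 12 of 16 (33 of 301, 11.0%), with Tead1 at 8, Wwtr1 at 6, Amotl1 at 5, Vgll4 at 3 and Ctgf at 2.

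A list of neuronal factor genes had a member in 15 of 28 (45 of 366 peaks, 12.3%), but 18 of the 45 were at Rbfox1, which encodes a splicing regulator and no transcription factor. Without Rbfox1, 27 of 326 peaks were members (8.28%, 5.75–11.8), with 5 at Bcl11b and 2 each at Bcl11a, Emx1 and Eomes. Oligodendrocyte genes had one in 7 of 17 (13 of 155, 8.39%; Bcas1, Mal and Mbp with 3 each and Olig2 and Pdgfra with 1), endothelial and mural genes in 10 of 18 (15 of 130; Cdh5 with 3, Kdr, Pdgfrb and Rgs5 with 2), and pluripotency genes in 7 of 17 (10 of 80; Klf5 with 3 and Klf4 with 2). Liver and muscle genes had one in 5 of 20 (7 of 50 peaks, 14.0%, 6.95–26.2, with 3 at Ttn) and microglia and macrophage genes in 3 of 18 (Irf8 with 3, C1qa and Laptm5 with 1), the only lists under 36.0%. Numbers were small in these last 5 lists, and the intervals of all 5 included 11.9%. The interval of the neuronal factor list included it with Rbfox1 (9.32–16.1) and lay below it without Rbfox1.

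Of 35 astrocyte genes, 23 had a member, with 73 members among 636 eA peaks (11.5%, 9.23–14.2). Nfia led with 16 of 94, followed by its paralogue Nfib with 9 of 93, the bicarbonate transporter gene Slc4a4 with 7 of 47 and Aldh1l1, a folate enzyme gene and common astrocyte marker, with 6 of 23. Vim, an intermediate filament gene, and Sparc, a secreted matrix protein gene, had 4 each, of 8 and 17 peaks. Slc1a2, the main glutamate transporter gene, and Fgfr3 had 3 each. There were 2 members each at Aldoc, Aqp4, Cd44, Nes, S1pr1 and Slc7a10, and 1 each at Acsbg1, Atp1b2, Clu, Gja1, Gjb6, Hes1, Slc1a3, Sox9 and Sparcl1.

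At Nfia (chr4:97439425-97868605, plus strand), 12 of the 16 members lay in the gene itself and 4 in the neighbouring E130114P18Rik. Their −log10 q in eA ran from 2.81 to 8.85 and their widths from 182 to 626 bp, so all were low peaks. Some shared an lA peak, so that the 16 members met 14 lA peaks. The upstream member at chr4:97387653-97388028 held an AP-1 core (TGAGTCA) and a Stat3 core (TTCCTGGAA) in 1 window, and the member at chr4:97714170-97714406 held an NF1 half-site (TGCCAAG). The gaps to H3K27ac at these members ran from 262 to 19168 bp. At Vim, the member in the gene at chr2:13501002-13502238 was 1237 bp wide and had a −log10 q of 24.7, with the other 3 between 4.16 and 8.67.

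The genes of the study's factors and of AP-1 proteins had a member in 12 of 19, with 44 members among 308 eA peaks (14.3%, 10.8–18.6), of which 16 were the Nfia members above. Runx2, a runt-domain factor gene, had 7 members of 40 eA peaks, all in introns, with −log10 q of 3.08 to 7.64. The annotation holds a shorter overlapping Runx2 model, to which 2 more members were given. Runx1 had 5, of which one lay 3 bp from an H3K27ac peak and another 19 bp. Batf3 had 3, and Atf3, Fos, Jdp2, Junb and Stat3 had 2 each. The Atf3 members lay in its introns, 82 and 2745 bp from H3K27ac. Both Stat3 members lay in the gene, with −log10 q of 7.51 and 8.01, and 2382 and 11203 bp from H3K27ac. Fosb, Fosl2 and Jun had 1 each.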

How the data were processed

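ChIP-seq of H3K4me1 and H3K27ac was made by the authors in aNPC, eA and lA. Per the study's methods, reads were mapped uniquely to mm9 with Bowtie, the 2 replicates of a stage and mark were merged, and peaks were called with MACS at default settings without an input control. The deposited lists hold, for each peak, its interval and summit, a fold enrichment over the local background (a ratio) and a −log10 q, as the authors' caller gave them. No read counts were used here, so depth per sample is unknown and no test of stages against each other was possible.

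Overlaps of at least 1 bp and gaps in bp between peak edges were computed with Python 3.11.15, NumPy 2.4.6 and pandas 2.3.3 on chromosomes 1 to 19 of the 6 lists. Genes came from the GENCODE annotation and sequence from the genome of the same mm9 assembly (read with pysam 0.24.0), with 49460 coding start sites. Shares at promoters, in introns, between genes and with each of 13 motif cores (1 of them, and a few genes and sequences, not reported here) were compared between the members and 3 classes by Fisher's exact test (SciPy 1.17.1, two-sided, 48 tests, Benjamini-Hochberg, threshold 0.05). The tests were checked on simulated data. Peaks, not cultures, are the units. Alternatives were other overlap and distance rules, a −log10 q of at least 5, lists of equal length, 1 peak of a class per 100 kb, wider windows and promoters, other gene distances, and Mantel-Haenszel strata of GC content in steps of 2 points and of peak width in 5 strata, the last chosen after seeing the data.

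The members and the 15 gene lists were chosen with earlier results of these data known. Named were the 12 genes with the most members, the 10 members with the highest −log10 q, and of each gene list up to 5 genes with the most members, with every gene of the astrocyte list and of the list of study factors and AP-1 genes that had one. Peaks of chromosome X were kept out of the tests, and 8 RNA samples whose labels did not agree on a group were not used.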

Additional observations from a re-analysis of the deposited data

Results flagged for a closer look

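Peaks of chromosome X were outside every comparison above. By the same rule, 502 of its 4214 eA H3K4me1 peaks (11.9%, 11.0–12.9, Wilson interval) had lA H3K4me1, no aNPC H3K4me1 and no H3K27ac, beside 12.3% on chromosomes 1 to 19. The signal was listed because it lies in data that the comparisons did not use, and there is no control list to set it against.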

How the results depend on the processing

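No paired analysis was possible because the 2 replicates of each stage and mark were merged before peaks were called, so the lists carry no replicate numbers. For the same reason no replicate could be left out, and differences in depth between lists cannot be told apart from differences in the marks. The number of members was 11019 with no aNPC H3K4me1 or H3K27ac peak within 2 kb, 9971 at a −log10 q of at least 5 in eA and lA, and 10892 with lists of 150527 peaks each. It stayed between 15520 and 20438 under the 4 other rules. Of the differences that passed the test, 11 of 15 for motifs and 4 of 6 for positions passed under every alternative run on them, with the same direction.

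As odds ratios of the members, the intron share against the eA-only class came to 1.05 at a −log10 q of at least 5 and 1.02 with 1 peak of a class per 100 kb, and against the later acetylated class to 1.08 with 1 peak per 100 kb. With promoters within 1 kb of any start, the promoter share came to 0.866 against the eA-only and 1.36 against the later acetylated class. Directions turned for shares that had not passed the test. At a −log10 q of at least 5 these were intergenic against eA-only (1.04), TEAD against later acetylated (0.945) and forkhead against eA-only (0.960). With 1 peak per 100 kb they were intergenic against eA-only (1.03), TEAD against later acetylated (0.992), SOX and Lhx2 against persistent (0.987 and 0.938) and CTCF-type against eA-only (1.004). In 500 bp windows they were NF1 against persistent (0.988) and, against later acetylated, AP-1 (0.866), RUNX (0.991), TEAD (0.969) and NeuroD (1.03). Within GC strata they were SOX (0.924), Lhx2 (0.873) and forkhead (0.999) against persistent and SOX (0.979), Brn1 (0.989) and CTCF-type (1.09) against eA-only. Within width strata they were SOX (0.995) and Lhx2 (0.989) against persistent and NeuroD against later acetylated (1.004). Some core shares that had not passed the test did so under an alternative. In 500 bp windows these were Stat3 (0.711) and Lhx2 (1.20) against later acetylated, SOX (1.14) and CTCF-type (0.921) against eA-only and forkhead (1.096) against persistent, besides AP-1 as given. Others were SOX against later acetylated with 1 peak per 100 kb (1.27), Brn1 against persistent (0.819) and CTCF-type against eA-only within GC strata, and forkhead against later acetylated within width strata (0.821). The cause was not tested for any of these. Ranks within equal lists and gene lists without their leading gene were tried after seeing the data. Of the latter, only the neuronal factor list without Rbfox1 had an interval that did not hold the share over all genes, at 8.28% (5.75–11.8).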
